A study of Homo sapiens with 6 samples.

Results

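Chromatin remodellers and bromodomain genes were compared between the bladder carcinoma line UC3 (UM-UC-3) and a subline, UC3DDP, which the study calls UC3-R. The members were the protein-coding genes whose symbols begin with SMARC, BAZ1, BAZ2, PBRM1 or INO80, or with ARID, CHD or BRD and a number. ING1 to ING5 and MTA1 to MTA3 were also members. This rule used names alone and took 58 of the 18936 genes in the count table, of which 13406 were protein-coding. The subline had been selected from UC3 by repeated cycles of gemcitabine and cisplatin at rising concentrations, each followed by recovery in drug-free medium. The parental cells received no selection, and both groups had 3 RNA-seq libraries, UC3-1 to UC3-3 and UC3DDP-1 to UC3DDP-3. A single selected subline of UC3 was sequenced, so an effect of selection cannot be told apart from a property of that one subline. The study also sequenced T24 and its subline T24-R, which were not used here. The sources used here do not say whether drug was present at harvest.

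Chromatin remodellers are ATP-driven machines that slide, eject or exchange nucleosomes and so set which DNA is open to transcription and repair. They fall into families named after their ATPase. The BAF and PBAF complexes (SWI/SNF) evict nucleosomes at enhancers and promoters, ISWI complexes space them evenly, CHD proteins act alone or within the NuRD deacetylase, and INO80 moves nucleosomes at promoters, replication forks and sites of repair. Bromodomains are the modules that bind acetylated lysines on histone tails, and they occur in remodellers and in readers such as the BET proteins. Subunits of BAF and PBAF are among the genes often mutated in bladder cancer, ARID1A being the best known.

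Of the 58 members, 57 had enough counts to be tested. A gene was called when its Benjamini-Hochberg adjusted p in edgeR's quasi-likelihood test, taken over all 15120 genes tested, was under 0.05 and its log2 fold change, UC3DDP over UC3, exceeded 1 in size. In UC3DDP 22 members fell and 2 rose, and 33 were not called. The share that fell was 38.6%, against 23.1% of all genes tested, and the share that rose was 3.51%, against 17.6%. The median log2 fold change of the tested members was -0.42, and that of all genes was 0.02. These levels come from bulk RNA, in which fewer cells with a transcript and less transcript per cell cannot be told apart. Standard errors of log2 fold changes are given as SE. Levels are given as CPM (a gene's counts scaled to an equal library total, after TMM scaling of the totals) and, where genes are compared with each other, as TPM, which also divides by exon length.

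Of the 22 members that fell, 6 were CHD remodellers outside NuRD and 5 were ISWI ATPases or BAZ subunits. Values are given with and without an adjustment, because the libraries of the subline differed from those of UC3 in base composition. Genes with GC-rich transcripts were higher than genes with GC-poor transcripts in every UC3DDP library relative to UC3, by 2.36, 1.69 and 1.84 on the log2 scale between the median of the 20% of genes richest in GC (guanine and cytosine) and that of the 20% poorest. The 3 UC3 libraries lay between -0.02 and 0.02 on that measure. A second fit removed the trend with GC content and exon length from each library, and its values are called GC-adjusted. With it 17 members fell and 2 rose, 29.8% and 3.51%, against 14.7% and 13.1% of all genes, and the median was -0.55 for the members and -0.04 for all genes. The members that fell in both fits numbered 16. They were ARID2, ARID4A, ARID4B, BAZ1A, BAZ1B, BAZ2B, BRD8, CHD1, CHD1L, CHD2, CHD6, CHD7, CHD9, INO80, INO80D and PBRM1.

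**Figure D1:**
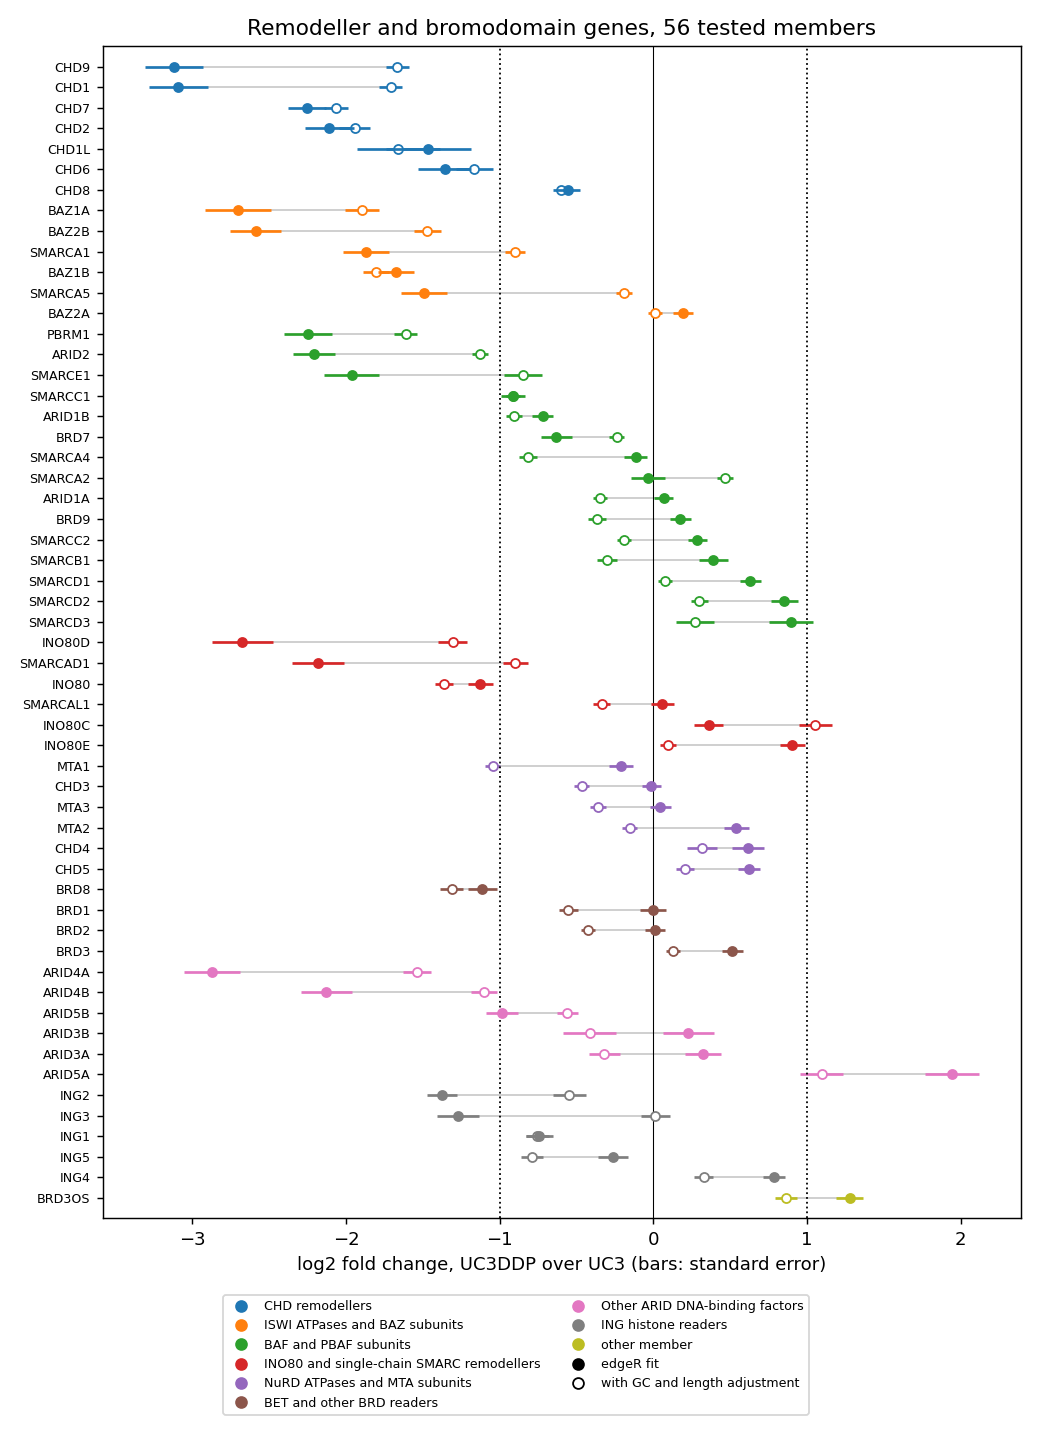
Log2 fold change of UC3DDP over UC3 (horizontal axis) for 56 of the 57 tested members (one per row, coloured by group), with filled points for the edgeR fit, open points for the GC-adjusted fit and bars for the standard error. The CHD group sits furthest to the left in both fits, with CHD9 at -3.12 and CHD1 at -3.09 before adjustment, and ARID5A is furthest to the right at 1.94.

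Total counts were 19467228 to 20803970 in UC3 and 16757610 to 17254683 in UC3DDP. UC3DDP-1 stood apart from the other subline libraries, with the steepest GC trend. Its counts differed from those of UC3DDP-2 and UC3DDP-3 by a chi-square of 24.1 and 14.3 per degree of freedom, against 3.69 between those 2 libraries and 1.49 to 1.89 within UC3. It was also the only library with CDH1 (E-cadherin) counts, at 9.44 CPM. Without it 22 members fell and 2 rose. Of the 10 epithelial markers looked for, 8 were in the table and 5 passed 1 CPM in a library, with a sum of 207 to 215 CPM in UC3 and 328 to 422 CPM in UC3DDP. KRT8 and KRT18 made up most of it, while EPCAM, KRT19 and UPK2 stayed below 1 CPM throughout. KRT7 was at 2.02 to 3.00 CPM in UC3 and 6.22 to 7.42 CPM in UC3DDP. GATA3 was at 0.744 to 0.865 CPM in UC3 and 1.36 to 1.69 CPM in UC3DDP. The 5 fibroblast markers summed to 4.66 to 5.36 CPM in UC3 and 12.2 to 21.9 CPM in UC3DDP. The 4 endothelial markers summed to 0.10 to 0.50 and 2.31 to 8.07 CPM, and the 1 leukocyte marker in the table, of 5, to 0.10 and 0.17 to 0.48 CPM. Every fibroblast and endothelial marker was highest in UC3DDP-1. There PECAM1 was at 2.79 CPM, against 0.291 and 0.296 CPM in UC3DDP-2 and UC3DDP-3, and COL1A2 at 3.44 against 0.465 and 0.592 CPM. The part of these differences in the results was not tested.

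Promoters are shown for 3 members on which the results turn, namely CHD1 and CHD2, a pair of paralogues that both fell, and ARID5A, which rose. Each sequence runs from 250 bases before to 50 bases after the RefSeq start (GRCh38.p14), 5′ to 3′ on the gene's own strand. Capitals mark matches on either strand to the GC box (GGGCGG), the CCAAT box (CCAAT) and the core of the YY1 motif (ATGGCGGC), and GC boxes that overlap run together. CHD1 lies on the minus strand at chr5:98928958-98929257, CHD2 on the plus strand at chr15:92900074-92900373 and ARID5A on the plus strand at chr2:96536502-96536801.
CHD1: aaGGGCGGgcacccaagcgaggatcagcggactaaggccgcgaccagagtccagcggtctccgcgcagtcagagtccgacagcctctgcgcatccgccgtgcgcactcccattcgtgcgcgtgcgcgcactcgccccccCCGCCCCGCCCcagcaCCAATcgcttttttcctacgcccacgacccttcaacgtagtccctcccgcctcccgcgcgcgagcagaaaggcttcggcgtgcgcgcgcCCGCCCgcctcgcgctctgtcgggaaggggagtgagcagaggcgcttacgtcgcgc
CHD2: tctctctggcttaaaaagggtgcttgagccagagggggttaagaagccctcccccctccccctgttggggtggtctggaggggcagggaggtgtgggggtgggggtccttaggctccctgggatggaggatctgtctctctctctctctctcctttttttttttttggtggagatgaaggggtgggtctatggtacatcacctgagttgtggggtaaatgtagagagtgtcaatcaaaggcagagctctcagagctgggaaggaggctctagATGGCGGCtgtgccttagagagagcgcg
ARID5A: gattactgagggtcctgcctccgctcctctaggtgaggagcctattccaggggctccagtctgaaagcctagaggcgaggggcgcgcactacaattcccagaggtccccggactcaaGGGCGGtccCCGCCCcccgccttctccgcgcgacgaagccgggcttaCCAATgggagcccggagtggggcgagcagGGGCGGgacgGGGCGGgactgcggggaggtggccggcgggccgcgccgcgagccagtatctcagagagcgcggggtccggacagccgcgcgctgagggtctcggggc

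The CHD1 window was 70.7% GC with 44 CpG dinucleotides, 4 GC boxes and 1 CCAAT box. The ARID5A window was much like it, at 71.7% GC with 32 CpG, 4 GC boxes and 1 CCAAT box, although the levels of the genes moved in opposite directions. The CHD2 window had 56.0% GC, 3 CpG and no GC box, and held the YY1 core once. RefSeq promoters were matched for 47 of the 58 members. For members the start nearest the deposited gene start was taken, and for all promoters the first one listed for each gene. Some windows of members not called lay far from the deposited start, such as those of SMARCA2 (35057 bases) and CHD8 (18851 bases). Their median GC content was 65.3% in the 17 that fell and 68.7% in the 27 not called, against 58.3% over 27305 promoters. A GC box was present in 64.7% of the former, 85.2% of the latter and 44.6% of all promoters. The ETS core (CCGGAAG) was found in 5.88% (1 of 17), 29.6% (8 of 27) and 10.7%, and the CCAAT box in 29.4%, 14.8% and 35.7%. The YY1 core was found in 5.88%, 11.1% and 3.21%. These are counts of letters in a window, on either strand, and not of bound sites.

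Most CHD remodellers carry paired chromodomains, which in some of them bind methylated histone tails, in front of a helicase-like ATPase. Outside NuRD, 6 of the 7 measured genes fell, both before and after GC adjustment, with medians of -2.11 and -1.67. That share of 85.7% compares with 23.1% of all genes tested before adjustment and 14.7% after it. CHD1, which binds the histone mark of active promoters and travels with elongating polymerase, was at 193, 200.1 and 194.5 CPM in UC3-1 to UC3-3 and at 15.3, 27.6 and 26.1 CPM in UC3DDP-1 to UC3DDP-3. The groups lay far apart, and the mean in UC3 was 8.52 times that in UC3DDP. The log2 fold change was -3.09 (SE 0.19, adjusted p 8.89e-07), and -1.71 GC-adjusted. CHD9 was at 259, 261 and 248 CPM in UC3 and at 19.8, 33.0 and 35.5 CPM in UC3DDP. It had the lowest log2 fold change of the tested members, -3.12 (SE 0.19, adjusted p 8.47e-07), which became -1.67 with adjustment.

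CHD7, mutated in CHARGE syndrome and active at enhancers, was at 129, 128.5 and 132 CPM in UC3 and at 21.7, 31.7 and 28.2 CPM in UC3DDP. The log2 difference was -2.26 (SE 0.13, adjusted p 5.91e-07) and changed little with adjustment, to -2.07, which was the lowest GC-adjusted value among the members. CHD2, a close relative of CHD1 known from childhood epilepsies, was at 125.5, 120 and 121 CPM in UC3 and at 20.7, 34.6 and 29.4 CPM in UC3DDP, a log2 fold change of -2.11 (SE 0.16, adjusted p 2.4e-06) and of -1.95 adjusted. CHD6 fell from 95.9 to 102.5 CPM in UC3 to 27.7 to 49.2 CPM in UC3DDP, by 1.36 on the log2 scale and by 1.17 with adjustment. In each of these genes UC3DDP-1 was the lowest library and no library of one line reached the range of the other.

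CHD1L, a macrodomain remodeller recruited by poly(ADP-ribose) at DNA breaks, was counted at 1.68 to 1.71 CPM in UC3 and 0.41 to 0.93 CPM in UC3DDP, with a log2 fold change of -1.46 (SE 0.28, adjusted p 0.000915). Other annotated genes covered 69.8% of its exon bases, so this level is uncertain. CHD8, a repressor of Wnt target genes, was the one gene of the group that was not called. Its levels of 245.5 to 258 CPM and 154.5 to 179 CPM did not overlap, and its log2 fold change of -0.56 (SE 0.08, adjusted p 0.000138) was under the fold limit.

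ISWI remodellers pair one of the ATPases SMARCA5 (SNF2H) and SMARCA1 (SNF2L) with a large subunit, often of the BAZ family, whose bromodomain and PHD finger read histones. Of 6 genes 5 fell, with a median of -1.77, and 3 of 6 after GC adjustment, with a median of -1.19. BAZ1A (ACF1), the partner that lets SNF2H space nucleosomes, was at 144, 140.3 and 139 CPM in UC3 and at 13.3, 27.6 and 24.1 CPM in UC3DDP. UC3DDP-1 was again lowest, and the log2 fold change was -2.70 (SE 0.21, adjusted p 3.45e-06), or -1.90 adjusted. An antisense gene overlaps 12.4% of its exon bases, and none of the sources used here says if reads were counted by strand.

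BAZ1B (WSTF), a gene of the Williams syndrome interval that also phosphorylates the histone variant H2A.X, had the highest TPM of all members in UC3, 125. It was at 337, 344 and 354 CPM in UC3 and at 88.3, 122.7 and 113 CPM in UC3DDP. It changed by -1.68 on the log2 scale (SE 0.12, adjusted p 1.58e-06) and -1.81 with adjustment, so this gene of middling GC content, 48.0%, kept its difference. BAZ2B was at 49.7, 52.9 and 48.2 CPM in UC3 and at 5.64, 9.60 and 9.78 CPM in UC3DDP, with log2 fold changes of -2.59 (SE 0.17, adjusted p 1.1e-06) and -1.47 adjusted. BAZ2A (TIP5), which silences ribosomal DNA repeats, was not called. It lay at 169 to 173 CPM in UC3 and 188 to 201 CPM in UC3DDP, a log2 fold change of 0.19, and 0.01 with adjustment.

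Both ATPases fell before adjustment and were not called after it. SMARCA5 was at 209.7, 210.5 and 210.7 CPM in UC3 and at 55.2, 87.2 and 81.8 CPM in UC3DDP, a log2 fold change of -1.49 (SE 0.15, adjusted p 1.45e-05) that became -0.19. SMARCA1 was at 201, 198 and 192 CPM in UC3 and at 40.0, 63.0 and 58.3 CPM in UC3DDP, a log2 fold change of -1.87 that became -0.90. Their transcripts were 38.4% and 39.5% GC.

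**Figure D2:**
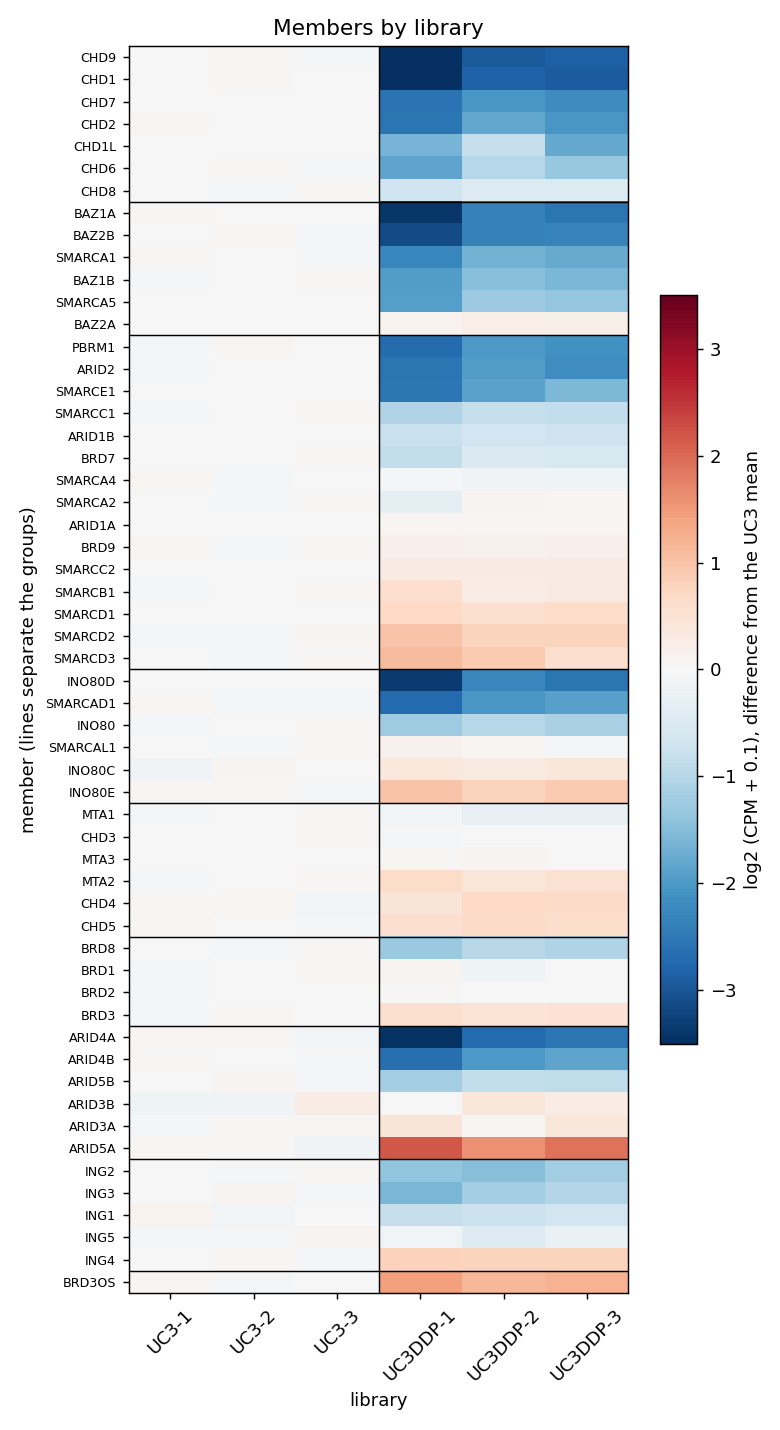
Colour gives log2 (CPM + 0.1) of 56 of the 57 tested members (rows, lines separating the groups) in each library (columns), as the difference from the mean of the 3 UC3 libraries. The UC3 columns are nearly flat, and UC3DDP-1 is the darkest blue column, the lowest subline library in 20 of the 22 members that fell.

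BAF and PBAF share an ATPase, SMARCA4 (BRG1) or SMARCA2 (BRM), and a core of SMARCB1, SMARCC, SMARCD and SMARCE1 proteins. They differ in the subunits that direct them: ARID1A or ARID1B in BAF, ARID2, PBRM1 and BRD7 in PBAF, and BRD9 in the non-canonical BAF. Of the 15 genes 3 fell and none rose, and the median was -0.04. With adjustment 2 fell and the median was -0.35.

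PBRM1 and ARID2, which are particular to PBAF, had the lowest log2 fold changes of the group. PBRM1, whose row of bromodomains binds acetylated histone H3, was at 186, 199 and 193 CPM in UC3 and at 29.6, 47.4 and 44.3 CPM in UC3DDP. The lines were separated by a mean ratio of 4.76, with a log2 fold change of -2.25 (SE 0.16, adjusted p 1.6e-06) and -1.61 adjusted. ARID2, the DNA-binding subunit next to it, was at 127, 133 and 131 CPM in UC3 and at 22.1, 33.4 and 28.9 CPM in UC3DDP, with -2.21 (SE 0.13, adjusted p 8.47e-07) and -1.13. BRD7, the bromodomain subunit of PBAF, had 169 to 178 CPM and 94.8 to 122.5 CPM and a log2 fold change of -0.63, or -0.24 adjusted. Exons of ADCY7 on the opposite strand cover 41.8% of its exon bases.

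In contrast, the levels of the ATPases and of ARID1A lay close together in the lines. SMARCA4 was at 28.6 to 31.6 CPM in UC3 and 27.1 to 28.4 CPM in UC3DDP, a log2 fold change of -0.12 (SE 0.07, adjusted p 0.169), and SMARCA2 at 49.5 to 51.6 and 40.7 to 53.9 CPM, -0.04 (SE 0.11, adjusted p 0.773). ARID1A was at 139 to 143 CPM in UC3 and 147 to 149 CPM in UC3DDP, 0.07 (SE 0.06, adjusted p 0.358), while its paralogue ARID1B was at 124 to 126 and 73.3 to 79.0 CPM, -0.72 (SE 0.07, adjusted p 9.88e-06), without overlap. GC adjustment moved ARID1A to -0.35 and ARID1B to -0.91. It moved SMARCA4 to -0.82 and SMARCA2 to 0.47, so the closeness of these levels depends on that choice.

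Among the scaffold subunits, SMARCC1 (BAF155) was at 252, 257 and 262 CPM in UC3 and at 123.4, 144 and 141 CPM in UC3DDP. Its log2 fold change of -0.92 (SE 0.08, adjusted p 5.71e-06) was just under the fold limit and was -0.91 with adjustment. SMARCC2 (BAF170) was at 151 to 154.5 CPM in UC3 and 185 to 188 CPM in UC3DDP, 0.29, a sign that turned with adjustment, to -0.19. The SMARCD1, SMARCD2 and SMARCD3 subunits had log2 fold changes of 0.63, 0.85 and 0.90, and 0.08, 0.30 and 0.27 after adjustment. Exons of CHPF2 on the opposite strand cover 26.9% of the exon bases of SMARCD3. SMARCE1 (BAF57) was at 16.3 to 16.6 CPM in UC3 and 2.79 to 5.45 CPM in UC3DDP, -1.96 (SE 0.18, adjusted p 8.04e-06), but it was not called after adjustment, at -0.85, and 18.9% of its exon bases are shared with another gene on its strand. SMARCB1, at 0.39, and BRD9, at 0.18, were not called, and both signs turned with adjustment, to -0.30 and -0.37.

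The INO80 complex takes its name from the ATPase INO80. INO80 was at 61.3, 62.5 and 64.3 CPM in UC3 and at 26.6, 31.2 and 28.4 CPM in UC3DDP. The lines did not overlap, and the log2 difference was -1.13 (SE 0.08, adjusted p 1.95e-06) and -1.36 with adjustment. INO80D, an accessory subunit, was at 54.8, 54.6 and 53.8 CPM in UC3 and at 5.22, 11.2 and 9.12 CPM in UC3DDP, -2.67 (SE 0.20, adjusted p 2.31e-06) and -1.31. The subunits INO80C and INO80E were not called, at 0.36 and 0.91. After adjustment INO80C rose, at 1.05, but it was not called under 2 of the 3 other ways of centring the adjustment. INO80B had 10 counts in all of UC3 and 18 in UC3DDP and was not tested, its ratio being 2.13 with an exact 95% interval of 0.934 to 5.17, which covers counting error only. INO80B-WBP1, a read-through gene on the same strand, covers 76.0% of its exon bases.

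Single-chain SMARC remodellers gave mixed values. SMARCAD1, which restores silent chromatin after replication and opens it around DNA breaks, was at 82.4, 77.4 and 77.0 CPM in UC3 and at 11.9, 19.2 and 20.97 CPM in UC3DDP. This was a log2 fold change of -2.18 (SE 0.17, adjusted p 3.25e-06), and -0.90 with adjustment, under the fold limit. SMARCAL1, which rewinds DNA at stalled replication forks, was at 43.0 to 45.1 CPM and 43.0 to 48.6 CPM, 0.06 (SE 0.07, adjusted p 0.501) and -0.34 adjusted. Its 2 groups of libraries overlapped.

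NuRD couples a CHD3, CHD4 or CHD5 ATPase to histone deacetylases through the MTA scaffold proteins. None of the 6 members was called, against 40.7% of all genes tested. The median log2 fold change was 0.29, a sign that flipped to -0.26 with GC adjustment. MTA2, the member of the group with the highest TPM (100.5 in UC3 and 120 in UC3DDP), was at 134, 141.5 and 145.5 CPM in UC3 and 220.5, 189 and 202 CPM in UC3DDP, 0.54 (SE 0.08, adjusted p 0.000183), but its sign turned with adjustment, to -0.15. MTA1, which has the second-highest GC content among the tested members (61.6%), was at 94.2 to 99.8 CPM and 79.6 to 90.8 CPM, -0.21, and fell with adjustment, at -1.05. CHD3 was at 256.5 to 266 CPM and 253 to 263 CPM, -0.01 (SE 0.06, adjusted p 0.86), and its groups overlapped. CHD4, at 8.36 to 9.41 and 12.4 to 14.5 CPM, shares 53.5% of its exon bases with other annotated genes, so its low level relative to CHD3 is uncertain.

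The BET proteins carry paired bromodomains that bind acetylated histones H3 and H4. BRD2 and BRD3 were not called. BRD2 was at 223, 229 and 232 CPM in UC3 and at 235, 226 and 229 CPM in UC3DDP, 0.01 (SE 0.06, adjusted p 0.872). BRD3 was at 63.4 to 67.2 and 90.8 to 96.1 CPM, 0.51 (SE 0.07, adjusted p 9.54e-05). GC-adjusted values were -0.42 for BRD2 and 0.13 for BRD3.

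BRD8, a bromodomain subunit of the TIP60 acetyltransferase complex, was the one gene that fell among the BET and other BRD readers. It was at 183, 177 and 188 CPM in UC3 and at 73.5, 92.4 and 87.2 CPM in UC3DDP, -1.11 (SE 0.09, adjusted p 4.75e-06) and -1.31 adjusted. BRD1, the scaffold of a histone H3 acetyltransferase complex, was at 26.5 to 28.0 and 24.7 to 29.3 CPM, -0.00372 (SE 0.08, adjusted p 0.97). BRD3OS was taken by its name only. It is the neighbour of BRD3 on the opposite strand and is not a bromodomain gene, and the annotated exons of each gene overlap those of the other (21.5% of the exon bases of BRD3OS). It rose from 23.5, 22.1 and 22.9 CPM to 61.8, 51.2 and 53.1 CPM, 1.28 (SE 0.09, adjusted p 1.79e-06), and was not called after adjustment, at 0.86.

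ARID proteins outside BAF bind AT-rich DNA or act with deacetylases. ARID4A and ARID4B, partners of the SIN3A deacetylase and of the retinoblastoma protein, both fell. ARID4A was at 72.4, 70.0 and 63.7 CPM in UC3 and at 6.17, 10.3 and 11.6 CPM in UC3DDP, -2.87 (SE 0.18, adjusted p 1.02e-06), and -1.54 adjusted. ARID4B was at 74.1, 73.3 and 69.3 CPM in UC3 and 11.5, 17.8 and 20.2 CPM in UC3DDP, -2.13 (SE 0.17, adjusted p 3.24e-06), and -1.10 adjusted, with RBM34 exons on its strand covering 12.9% of its exon bases.

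ARID5A, which binds and stabilises inflammatory transcripts such as that of IL6, was the one member that rose in both fits. It was at 2.43, 2.38 and 2.11 CPM in UC3 and at 10.7, 7.15 and 8.83 CPM in UC3DDP. All 3 subline libraries lay above all UC3 libraries, 3.85-fold on the means, with a log2 fold change of 1.94 (SE 0.17, adjusted p 7.23e-06) and 1.09 adjusted. It had the highest GC content of the tested members, 64.4%. ARID5B was not called, at -0.99 (SE 0.11, adjusted p 2.19e-05) and -0.56 adjusted, and ARID3A and ARID3B had values of 0.32 and 0.23, which turned to -0.32 and -0.41 with adjustment.

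ING proteins carry a PHD finger that reads trimethylated lysine 4 of histone H3 and guide acetyltransferases (ING3, ING4, ING5) or the SIN3 deacetylase (ING1, ING2). ING2 was at 18.3, 18.0 and 19.0 CPM in UC3 and at 6.95, 6.51 and 7.82 CPM in UC3DDP, -1.38 (SE 0.10, adjusted p 1.74e-06). ING3 was at 17.7, 18.9 and 16.8 and at 5.76, 7.74 and 8.59 CPM, -1.27 (SE 0.14, adjusted p 2.26e-05). Neither was called after adjustment, where ING2 was at -0.55 and ING3 at 0.01. ING4, the member of the group with the highest TPM, 31.7 in UC3 and 44.8 in UC3DDP, was at 22.5 to 25.1 and 40.6 to 41.6 CPM, 0.79 (SE 0.07, adjusted p 9.06e-06), while ING1 was at -0.74 and ING5 at -0.26. With adjustment ING4 was at 0.33, ING1 at -0.76 and ING5 at -0.79, and none was called.

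The members that fell were mostly GC-poor. The 22 members that fell had a median transcript GC of 40.1%, and the 33 not called 53.4%. Among the 28 members of lower GC content, 21 fell and the median log2 fold change was -1.77, and among the 29 of higher GC content 1 fell, 2 rose and the median was 0.23. After adjustment these counts were 15 that fell and 1 that rose, with a median of -1.12, and 2 that fell and 1 that rose, with a median of -0.32. Across the 57 genes, which share the same 6 libraries, log2 fold change and GC content had a Pearson r of 0.80 and a Spearman rho of 0.77, and 0.42 and 0.42 with adjustment. Members also had long transcripts, with a median exon length of 5577 bases against 2932 over all genes tested. How much of the differences in the GC-poor members belongs to the libraries' base composition was not tested beyond these adjusted values.

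**Figure D3:**
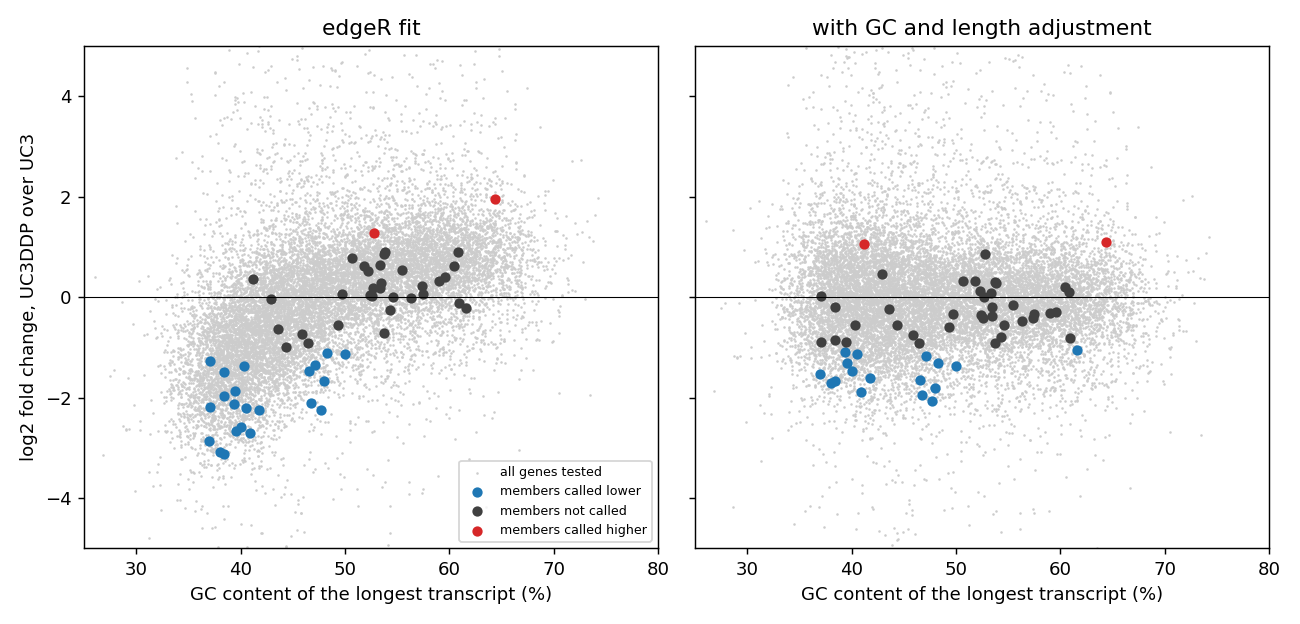
Log2 fold change of UC3DDP over UC3 (vertical axis) against the GC content of the longest transcript in percent (horizontal axis), before adjustment on the left and after it on the right, with all genes tested in light grey and 56 members coloured by call. On the left 21 of the 22 members called lower lie among the 28 members of lower GC content, and on the right 15 of 17 do.

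Levels of paralogues were compared within each library as the ratio of their TPM, a measure free of library size. For 16 pairs of members the difference in log2 ratio between the lines was tested by an exact permutation test, two-sided, for which 3 against 3 libraries allow no p below 0.1. In 15 pairs the groups did not overlap (p 0.1, adjusted p 0.107), with 9 ratios higher and 6 lower in UC3DDP, so none could pass 0.05. The ratio of BAZ2A to BAZ2B was 3.18, 2.91 and 3.27 in UC3 and 30.4, 19.1 and 18.5 in UC3DDP. The ratio of CHD8 to CHD7 was 2.65, 2.62 and 2.67 in UC3 and 9.77, 7.72 and 8.69 in UC3DDP. The mean ratio of SMARCC1 to SMARCC2 went the other way, from 1.35 to 0.584, and that of ARID1A to ARID1B from 1.35 to 2.32.

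The ratio of SMARCA4 to SMARCA2 was 0.613 in UC3 and 0.585 in UC3DDP and its groups overlapped (exact permutation p 0.6). With GC adjustment its difference moved from -0.07 to -1.28 on the log2 scale, since SMARCA4 is GC-rich (61.0%) and SMARCA2 is not (42.9%). In 3 pairs the difference changed sign with adjustment. They were CHD1 to CHD2 (-0.998 to 0.24), BRD9 to BRD7 (0.82 to -0.13) and ING1 to ING2 (0.64 to -0.21). For BAZ2A to BAZ2B it went from 2.82 to 1.48, for CHD8 to CHD7 from 1.71 to 1.47 and for MTA1 to MTA2 from -0.75 to -0.89.

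**Figure D4:**
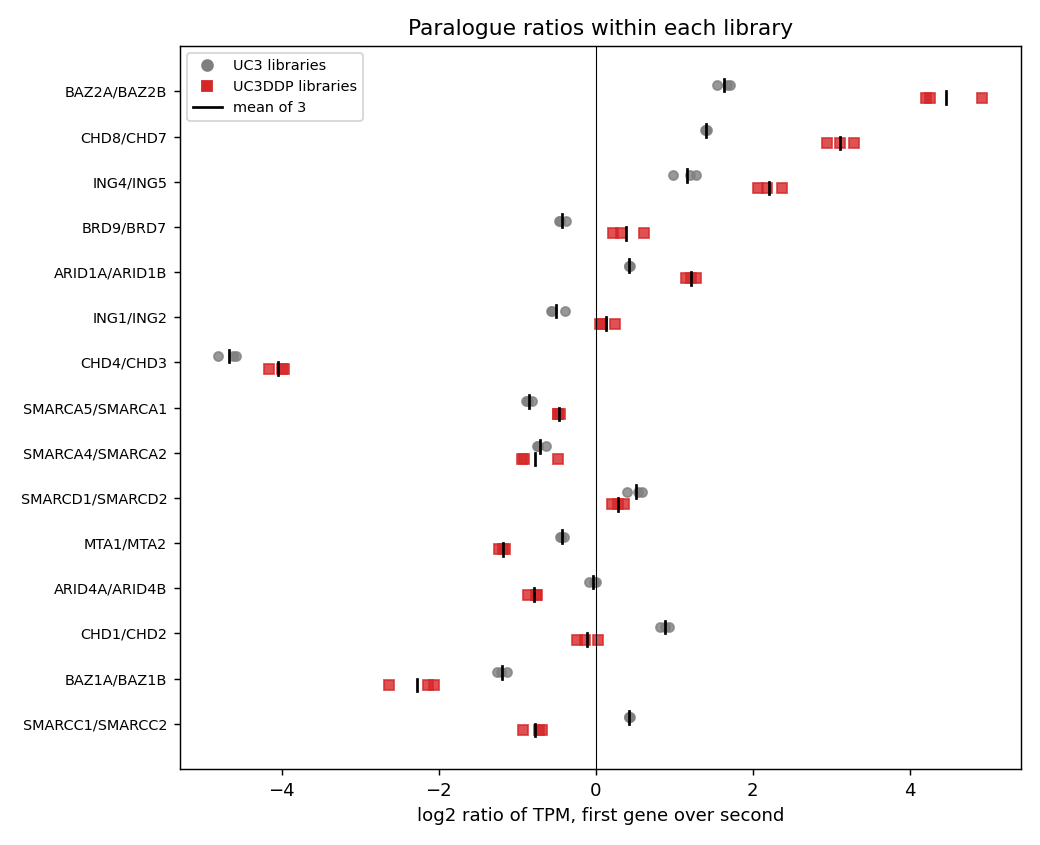
Log2 ratio of TPM of the first gene over the second (horizontal axis) for 15 of the 16 pairs of members, with one point per library, grey circles for UC3, red squares for UC3DDP and a black bar for the mean of 3. The BAZ2A/BAZ2B and CHD8/CHD7 ratios move furthest to the right, from 3.11 to 22.1 and from 2.65 to 8.68 on the linear scale, and of the pairs plotted only SMARCA4/SMARCA2 overlaps between the lines.

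Partners that the naming rule leaves out were read from a list of 100 genes, of which 98 were in the table and 96 were tested. Of these 31 fell and 7 rose, 32.3% and 7.29%, and 21 and 4 after GC adjustment, 21.9% and 4.17%. Of all genes tested 23.1% fell and 17.6% rose, and 14.7% and 13.1% after adjustment, which are the background for the counts of each list. Among other bromodomain genes 13 of 23 fell, and 9 of 23 with adjustment. BRWD3 went from 123.5, 125.5 and 125 CPM in UC3 to 7.42, 11.9 and 11.97 CPM in UC3DDP, -3.58 (SE 0.16, adjusted p 1.87e-07) and -2.01 adjusted. PHIP, its relative, was at -3.35 and -1.64, and ZMYND8, which reads acetylated histones at DNA breaks, at -1.85 and -2.06. BRWD1, another relative, fell, at -2.04, but was not called after adjustment, at -0.26. BRPF3 was the 1 gene of this list that rose, at 1.35, and was not called after adjustment, at 0.86. Among other remodelling ATPases 5 of 8 fell, and 4 with adjustment. ATRX, which deposits the histone variant H3.3 at telomeres and repeats, was at 246, 247 and 229 CPM in UC3 and 15.8, 23.8 and 32.5 CPM in UC3DDP, -3.32 (SE 0.21, adjusted p 1.14e-06) and -1.68.

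ISWI partners fell in 3 of 6 genes and rose in 1, and with adjustment fell in 2 and rose in 1. BPTF, the bromodomain subunit of NURF, was at -1.64 and -1.04 adjusted. CECR2, the partner of SNF2L and SNF2H in the CERF complex, rose from 1.49, 1.60 and 2.07 CPM to 7.66, 10.1 and 8.12 CPM, 2.32 (SE 0.17, adjusted p 2.36e-06) and 2.26 adjusted. Among BAF partners 2 of 13 fell and 2 rose, and with adjustment 2 fell and 1 rose. BCL11A was at 3.97, 3.88 and 4.52 CPM in UC3 and at 0.24, 0.06 and 0.59 CPM in UC3DDP, -3.78 (SE 0.36, adjusted p 1.04e-05) and -3.45, and DPF3 rose, at 1.59 and 1.47. Of the INO80, SRCAP and TIP60 partners 2 of 21 fell and 1 rose. None of these calls held with adjustment, where 2 other genes fell, ACTR5 at -1.28 and ACTR6 at -1.17, and 0 rose. Of the NuRD partners 1 of 9 fell and 1 rose, GATAD2B at 1.00, which was not called after adjustment, at 0.99. With adjustment 0 fell and 1 rose, RBBP4, from 0.12 to 1.03. The deacetylase HDAC2 was lower before adjustment, at -1.12, and was not called after it, at 0.37. HDAC1, also a NuRD deacetylase, was not called in either fit, at 0.62 and 0.39 adjusted.

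In 50 of the 57 tested members the libraries of the lines did not overlap, 18 higher and 32 lower in UC3DDP, against 83.7% of all genes tested. UC3DDP-1 was the highest subline library in both members that rose as well as the lowest in 20 of the 22 that fell. The median member stood at -0.39, -0.45 and -0.43 relative to the UC3 mean in UC3DDP-1, UC3DDP-2 and UC3DDP-3. Without the fold limit 31 members were lower and 17 higher at an adjusted p under 0.05, against 39.9% and 40.6% of all genes. The labels do not say whether the 3 libraries of a line came from separate cultures, so the p-values measure the spread between these libraries only.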

How the data were processed

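The authors deposited raw read counts per gene for 3 UC3 and 3 UC3DDP libraries. Per the study's methods, libraries were made with the NEBNext Ultra kit, and reads were trimmed with Fastp 0.23.2, aligned to GRCh38 with HISAT2 2.2.1 and counted with featureCounts 2.0.1. The labels disagree on the cell line, tissue, kit and genome of the series, but 99.8% of the deposited identifiers are human genes of GENCODE 44, and groups were taken from the sample titles. Deposited columns of log2 fold change, fold ratios and p-values hold the authors' own comparisons and were not used.

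Counts were tested with edgeR 4.0.16 in R 4.3.3 (TMM scaling, filterByExpr with a minimum count of 10, quasi-likelihood F-test, no covariates). The thresholds were those of the study. CPM and TPM were computed from the counts, TPM with the deposited exon length. For the GC-adjusted fit, a loess trend (span 0.3) of each library against the GC content of the longest GENCODE 44 transcript, then against exon length, was entered as an offset. In simulated counts for the 14797 genes of the self-test, 200 with known changes, the fit without adjustment recovered 100% of the changed genes. These counts held no GC trend, unlike the UC3DDP libraries. The value does not show how the fit performs under such a trend. DESeq2 1.42.0, limma voom 3.58.1, other scalings, filters and thresholds, a replicate block and leaving out each library were tried as alternatives. Replicates differed by more than sampling noise, so none was counted as a duplicate.

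Named genes were, in each group of members, up to 3 called members per direction with the largest change and at least 1 CPM, the member with the highest TPM, and every member called the same way in both fits. Other members named in the text were described after their values were seen. The partners named from the list followed no such rule. Members, groups and lists were chosen with earlier results of these data known. One member and its pair enter every count but are not reported here. Motifs were searched on both strands of RefSeq promoters.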

Additional observations from a re-analysis of the deposited data

How the results depend on the processing

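The count of members that fell stayed between 17 and 31 under every setting tried. Of the 29 named members, those called kept their sign except ING3, and of those not called MTA2, SMARCC2 and BRD2 changed sign with GC and length adjustment (to -0.154, -0.193 and -0.425) and under each variant of it. BRD2 also did with DESeq2 (-0.00585), DESeq2 size factors, protein-coding genes alone and without UC3 replicate 1 or UC3DDP replicate 1. DESeq2, limma voom, DESeq2 size factors, library totals, no filter and protein-coding genes alone changed no call of a named member. Without the fold limit 17 members were higher, and 31 companion genes were higher and 57 lower. A test against the fold limit itself (glmTreat) kept 19 members lower, losing BRD8, CHD1L and INO80, and 4 companions higher. Without a filter the median log2 fold change of the members was -0.34.

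With GC and length adjustment the median of the members was -0.554 (-0.554 with the replicate block, -0.546 without UC3DDP replicate 1), and 4 companions were higher (4 with the block, and 2 higher and 20 lower without that library). The centring of the adjustment was varied after seeing the data. With the trend centred at 0 in each library the median was -0.616, with 1 member and 3 companions higher. With the trend fitted on protein-coding genes it was -0.551, with 1 and 4 higher. With TMM recomputed it was -0.516, with 20 companions lower. The 17 members that fell were the same number in each. ING3 had a positive adjusted log2 fold change of 0.0118, of 0.00977 with the block, 0.0499 with TMM recomputed, 0.0593 with the protein-coding trend and 0.00505 without UC3DDP replicate 1. The differences in log2 ratio that reversed were 0.236 for CHD1 to CHD2, -0.127 for BRD9 to BRD7 and -0.209 for ING1 to ING2. The cause was not tested.

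Same-numbered libraries did not deviate together (correlations of -0.0474, -0.0136 and -0.00889), so the numbers were not taken as pairs. With a replicate block 2 members rose and 22 fell, with a median of -0.418, and 7 companions rose and 31 fell. Leaving out each library in turn gave 2 to 3 members higher, 22 to 23 lower and medians of -0.439 to -0.405, 5 to 9 companions higher and 26 to 34 lower, and no named member lost its call. Depth limits CHD1L, near 1 CPM, and INO80B, which was too low to test.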
